A study of Mus musculus with 10 samples.

Results

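Ribosome biogenesis is the nucleolar programme in which RNA polymerase I copies the ribosomal RNA precursor, small nucleolar ribonucleoprotein particles (snoRNPs) modify it, and assembly factors cut, fold and pack it into the small and the large ribosomal subunit. Myc is a transcription factor of the basic helix-loop-helix family that pairs with Max, binds E-box sequences such as CACGTG and is known as a general activator of these genes, and through them of growth in tumour cells. The genes described here were Myc and 41 ribosome biogenesis genes, 42 in all of the 18193 mouse genes with a probe set of a single symbol. They were picked by name with earlier results of these data known, so their shares beside those of all genes are a description and no independent test. Each was read from its probe set with the highest mean over the 10 arrays. By role, they comprised Myc, 7 genes of the RNA polymerase I machinery, 7 snoRNP genes, 12 genes of small subunit assembly, 12 of large subunit assembly and 3 abundant nucleolar proteins.

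The cells were Lewis lung carcinoma (LLC) cells, a lung tumour line of C57BL/6 mice. One line stably expressed TDAG8, a receptor that senses extracellular protons (gene symbol Gpr65), and the other was the control LLC line. Both were deprived of serum for 12 h in DMEM with 0.1% BSA at pH 7.4 and then given the same medium at pH 6.4 or at pH 7.4 for 4 h or 12 h, and both were also sampled before treatment. Every group thus lacked serum, and pH 7.4 at the same time is the reference for pH 6.4. In the pH comparisons, a gene said to rise or fall was higher or lower than in that reference, not than before treatment. There were 10 Affymetrix Mouse430 2.0 arrays, 1 for each line and condition, each hybridised with RNA pooled from 4 cultures. The labels do not say whether a line was a clone.

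The deposited values are linear signals, and each array had a trimmed mean of 100. The 42 genes read between 41.6 and 5943, and all of them passed the filter on low values that left 12161 genes for testing. Signals are given as deposited. Differences are log2 differences after quantile normalisation of log2(signal + 2.4), tested with limma over all 12161 genes (Benjamini-Hochberg adjusted p under 0.05). With 1 array per group, the lines stood in for replicates in the pH comparisons at each time and in the time comparisons. Errors and p-values there measure only how far the lines differed. In the fit over both times, the pairs of line and time stood in for replicates. Between the lines the conditions did, and for the acid response by line the times did. The Gpr65 probe set read 0.9 to 5.3 in TDAG8 cells and 0.3 to 4.9 in control cells, so it gave no check of the transgene. Of 6 epithelial markers, Krt8 read 1242 to 2648, Krt18 21.6 to 194, Epcam 22.1 to 45.1 and Ocln 7 to 31.1, and Cdh1 and Cldn4 stayed under 7. Of 4 mesenchymal markers, Vim, S100a4 and Fn1 read 858 to 9227 and Cdh2 0.2 to 4.2. All 5 leukocyte and all 4 endothelial markers and 3 of 4 lung markers stayed under 20, and the lung marker Sftpb reached 28.6. Of 6 fibroblast markers, Lum read 708 to 3964, Dcn 330 to 1309 and Pdgfra 265 to 1617, and Col1a1, Col1a2 and Thy1 did not exceed 20.

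At 12 h, 19 of the 42 genes were higher at pH 6.4 than at pH 7.4, against 16.9% of all genes tested, and 2 were lower, against 17.6%. At 4 h, 3 were higher (6.19% of all genes) and 5 were lower (11.5% of all genes). The median difference over the 42 genes was 0.33 at 12 h and 0.05 at 4 h, beside medians of 0.02 and 0.01 over all genes tested. The share called higher at 12 h was 45.2%, above that of all genes, while the shares called at 4 h, 7.14% higher and 11.9% lower, were near those of all genes. Without either pH 7.4 array of 12 h, which leaves 1 array of that condition, fewer of the 42 and fewer of all genes were called higher at 12 h. The median of the 42 genes was then 0.33 in both fits. Of the fibroblast markers, 3 of the 4 tested were lower at pH 6.4 at 12 h (Lum -1.75, Dcn -1.61, Pdgfra -1.52), and the summed signal of the 6 was 2626 in TDAG8 cells and 1502 in control cells at pH 6.4, against 6906 and 5258 at pH 7.4. At 4 h Pdgfra alone of the 4 was lower (-1.88), and the sum was 3815 and 2354 at pH 6.4, against 4900 and 3514 at pH 7.4. At 12 h Ocln (-1.09) and Fn1 (-1.07) were lower too, and the part of these markers in the shift of the 42 genes was not tested. At 4 h, centring the arrays on their medians gave 1 higher and 4 lower, against 334 higher and 1591 lower of all 12159 genes. Fewer of the 42 and fewer of all genes were called at 4 h, in both directions, when either pH 7.4 array of that time was left out. The median of the 42 genes was 0.061 without that of the TDAG8 line and 0.018 without that of the control line.

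**Figure D1:**
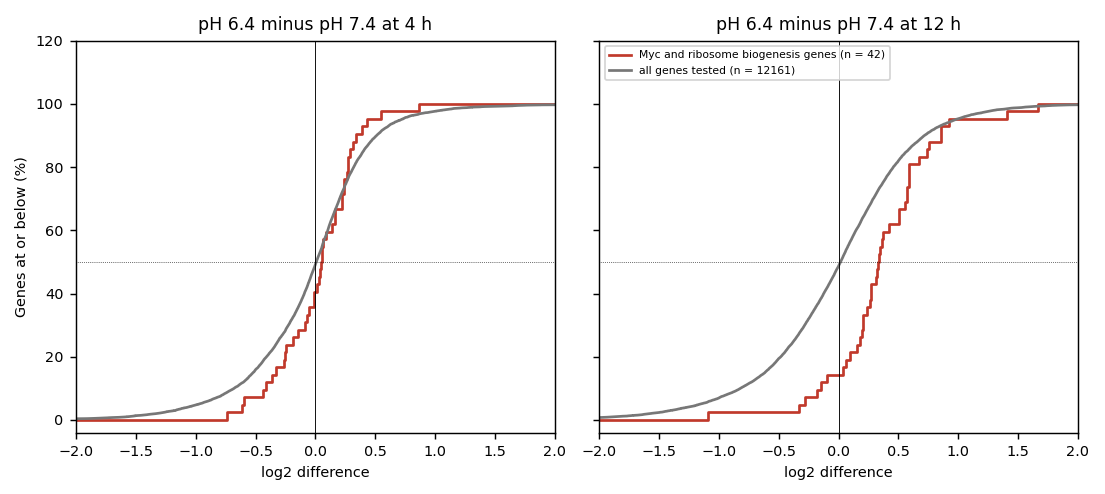
Cumulative share of genes (%, vertical axis) by the log2 difference of pH 6.4 minus pH 7.4 (horizontal axis) at 4 h, left, and at 12 h, right, for the 42 genes in red and all 12161 genes tested in grey. The medians of the 42 genes were 0.05 at 4 h and 0.33 at 12 h, so the red curve lies to the right of the grey one over most of its range at 12 h.

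Myc, Polr1a and Nop16 were higher at 4 h and at 12 h, the 4 h call of Polr1a holding in 6 and that of Nop16 in 2 of 10 fits with 1 array left out. Another 3 genes, Polr1b, Wdr43 and Gnl3, were lower at 4 h and higher at 12 h, although in each of them at least 1 of these calls was mostly lost with 1 array left out. With each of the 10 arrays left out in turn, the 4 h calls held in 9 fits for Polr1b, 2 for Wdr43 and 1 for Gnl3, and the 12 h calls in 0, 10 and 7. No gene was higher at 4 h and lower at 12 h. At neither time did 19 genes pass, among them Fbl, Ncl and Npm1. By sign alone, 14 of the 42 genes had a negative difference at 4 h and a positive one at 12 h, a pattern held by 18.4% of all genes tested.

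**Figure D2:**
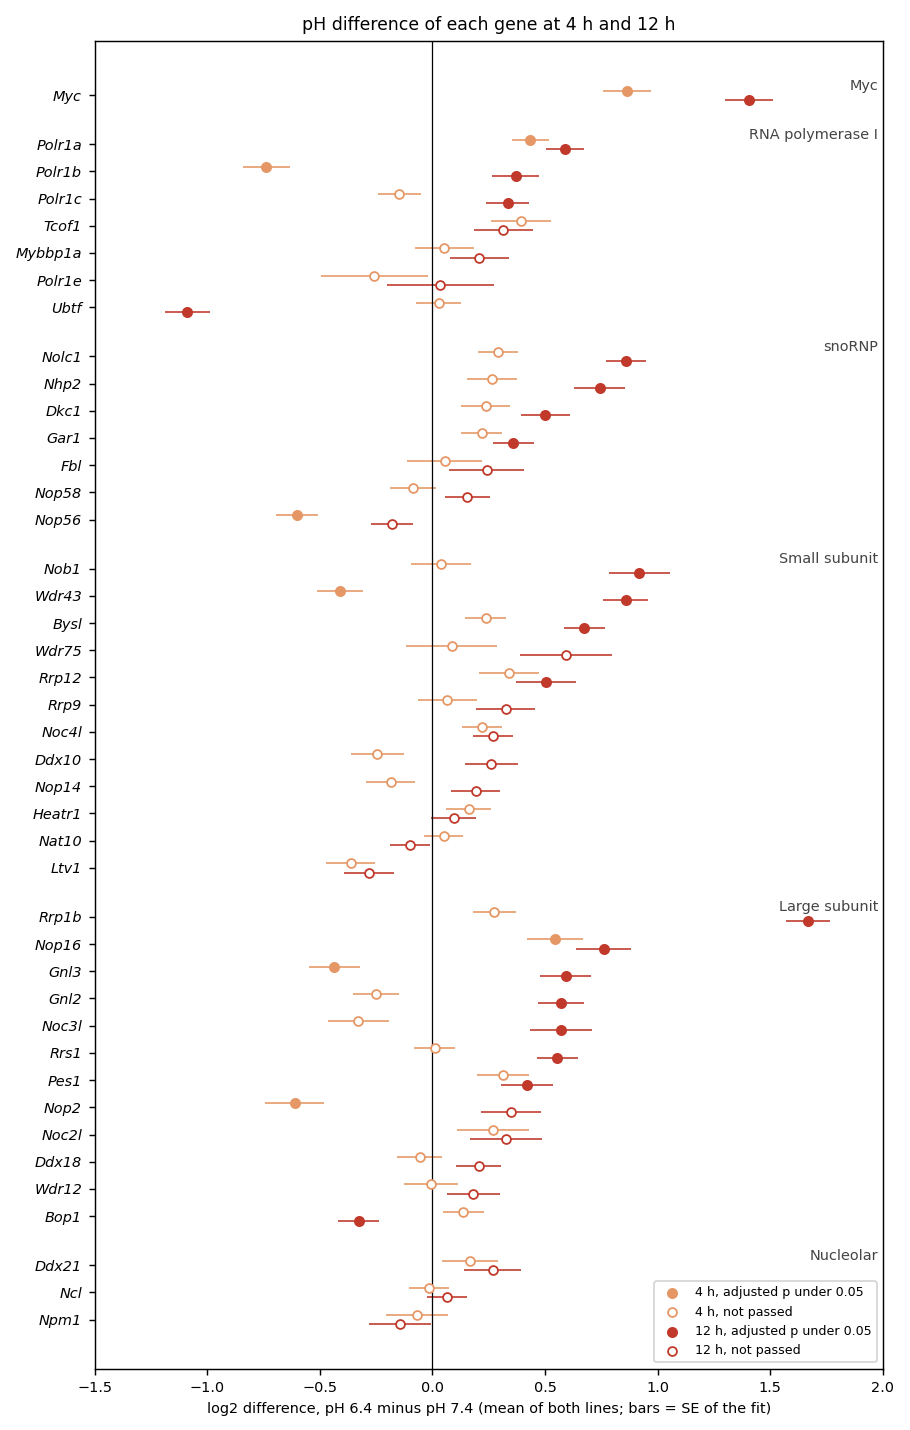
The log2 difference of pH 6.4 minus pH 7.4 (horizontal axis) for each of the 42 genes, grouped by role, at 4 h in orange and at 12 h in red. Points are means of both lines, bars are standard errors of the fit, and filled points passed at an adjusted p under 0.05. At 12 h, 19 filled points lie to the right of 0 and 2, Ubtf and Bop1, to the left.

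Myc itself rose in acid at both times in both lines. In the TDAG8 line it read 2047 at 4 h and 2160 at 12 h at pH 6.4, against 939 and 898 at pH 7.4 and 921 before treatment. Control cells read 2305 and 2996 at pH 6.4, against 1200 and 999.9 at pH 7.4 and 1280 before treatment. Each pH 6.4 array was above every array of the other conditions. The difference was 0.86 ± 0.11 at 4 h (SE of the fit, adjusted p = 0.0059), a 1.82-fold change, and 1.40 ± 0.11 at 12 h (adjusted p = 0.00089), a 2.65-fold change. The 4 h call was lost without the TDAG8 pH 7.4 array of 4 h (adjusted p = 0.055) or without that of the control line (adjusted p = 0.051). Over both times together it was 1.13 ± 0.16 (adjusted p = 0.021, 4 of 4 pairs higher), with an adjusted p between 0.046 and 0.088 when 1 pair was left out. The arrays read bulk RNA, in which a change in the number of cells with a transcript and a change in its amount per cell cannot be told apart.

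**Figure D3:**
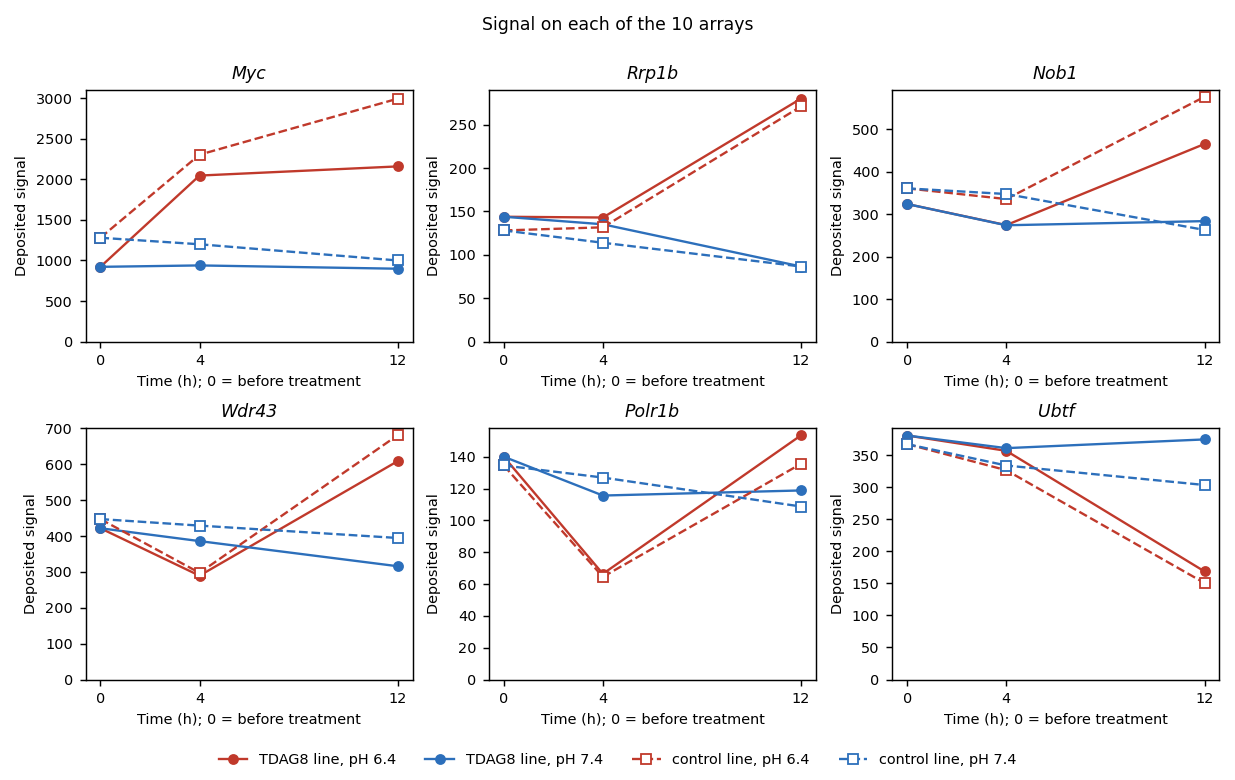
Deposited signal (vertical axis, from 0) against time (horizontal axis, h) on the 10 arrays for Myc, Rrp1b, Nob1, Wdr43, Polr1b and Ubtf. Filled circles are the TDAG8 line and open squares the control line, red is pH 6.4 and blue is pH 7.4, and the points at 0 h are the arrays from before treatment. In both lines Myc was already high at 4 h of acid, Rrp1b and Nob1 were high at 12 h but not at 4 h, Wdr43 and Polr1b were low at 4 h and high at 12 h, and Ubtf was low at 12 h.

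Of the 7 RNA polymerase I genes, 3 rose (42.9%, against 16.9% of all genes) and 1 fell (14.3%, against 17.6%) at 12 h of acid. Polr1a, the largest subunit of the enzyme, read 261 and 240.2 at 4 h and 12 h of pH 6.4 in the TDAG8 line, against 202 and 156 at pH 7.4. Control cells read 274 and 251 at pH 6.4, against 217 and 169 at pH 7.4. Before treatment Polr1a read 226 in TDAG8 cells and 235 in control cells. The pH 6.4 arrays did not overlap those at pH 7.4, and the differences were 0.43 ± 0.08 at 4 h (adjusted p = 0.020) and 0.59 ± 0.08 at 12 h (adjusted p = 0.0040). Polr1b, the other large catalytic subunit, reversed with time. It read 66.4 in TDAG8 cells and 64.5 in control cells at 4 h of pH 6.4, against 116 and 127 at pH 7.4, a difference of -0.74 ± 0.11 (adjusted p = 0.0086). At 12 h it read 154 and 136 at pH 6.4, against 119 and 109 at pH 7.4, a difference of 0.37 ± 0.11 (adjusted p = 0.039). Its signals before treatment were 140 in TDAG8 cells and 134.5 in control cells. The pH groups of Polr1b, of only 2 arrays each, overlapped at neither time, and the lower group at 4 h was the higher one at 12 h. How many of all genes lack such an overlap within a time was not counted. The 12 h call of Polr1b held in 0 of 10 fits with 1 array left out, and it was lost with median centring, with values as deposited and without a filter. Polr1c, a subunit shared with RNA polymerase III, rose by 0.34 ± 0.10 at 12 h (adjusted p = 0.039), a call that held in 1 of 10 fits with 1 array left out and was lost without a filter and when its probe sets were averaged.

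Ubtf, the HMG-box factor that opens ribosomal RNA genes for RNA polymerase I, ran the other way. At 12 h it read 169 in TDAG8 cells and 151 in control cells at pH 6.4, against 374.5 and 303 at pH 7.4. At 4 h it read 357 and 326.5 at pH 6.4, against 361 and 334 at pH 7.4. The fall was thus seen at 12 h alone, at -1.09 ± 0.10 (adjusted p = 0.0012), and at 4 h the difference was 0.03 ± 0.10 (adjusted p = 0.87). A dimmer Ubtf probe set differed by -1.25 at 12 h. Tcof1, which encodes treacle, and Mybbp1a passed at neither time. Polr1e had opposite signs in the lines, with differences of -0.61 in TDAG8 cells and 0.09 in control cells at 4 h, and 0.27 and -0.20 at 12 h.

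Among the 7 snoRNP genes, 4 rose at 12 h (57.1%, against 16.9% of all genes) and none fell (17.6% of all genes). Nolc1, a chaperone of snoRNPs, read 654 in TDAG8 cells and 651 in control cells at pH 6.4, against 349 and 366 at pH 7.4. The difference was 0.86 ± 0.09 (adjusted p = 0.0016). The dimmest Nolc1 probe set differed by -0.51. The remaining 3 were proteins of the box H/ACA particles, which turn uridine into pseudouridine: Nhp2 (0.74 ± 0.11), the enzyme Dkc1 (0.50 ± 0.11) and Gar1 (0.36 ± 0.09). With 1 array left out, the call of Gar1 held in 4 of 10 fits and that of Dkc1 in 7. The box C/D genes, whose particles methylate ribosomal RNA, gave no rise that passed. Nop56 fell at 4 h, with 656 in TDAG8 cells and 796 in control cells at pH 6.4, against 979 and 1127 at pH 7.4. That difference was -0.60 ± 0.09 (adjusted p = 0.011), and at 12 h it was -0.18 ± 0.09 (adjusted p = 0.19). The 4 h call of Nop56 held in 6 of 10 fits with 1 array left out. Nop58 and the methyltransferase gene Fbl passed at neither time. The difference between the box H/ACA and box C/D genes was not tested.

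Of the 12 genes of small subunit assembly, 4 rose at 12 h (33.3%, against 16.9% of all genes). At 4 h 1 fell (8.33%, against 11.5%). Nob1, the endonuclease that makes the last cut of the small subunit RNA, read 466 in TDAG8 cells and 577 in control cells at 12 h of pH 6.4, against 284 and 263 at pH 7.4. The difference was 0.92 ± 0.13 (adjusted p = 0.0043), and at 4 h it was 0.04 ± 0.13 (adjusted p = 0.87). Wdr43, a subunit of the early small subunit processome, read 289.6 and 297.5 at 4 h of pH 6.4, against 386 and 429 at pH 7.4, in the TDAG8 and control lines. At 12 h it read 609 and 681 at pH 6.4, against 316 and 395 at pH 7.4. Its difference was -0.41 ± 0.10 at 4 h (adjusted p = 0.041) and 0.86 ± 0.10 at 12 h (adjusted p = 0.0022). The pH groups, of only 2 arrays each, did not overlap at either time. A dimmer Wdr43 probe set, with a mean signal of 273, differed by -0.77 at 4 h and by only 0.09 at 12 h. Bysl and Rrp12, both assembly factors of small subunit precursors, rose at 12 h by 0.67 ± 0.09 and 0.50 ± 0.13, and the call of Rrp12 held in 4 of 10 fits with 1 array left out. Wdr75 differed by 0.99 in TDAG8 cells and 0.20 in control cells at 12 h and did not pass (adjusted p = 0.068). Ltv1, which acts late in the maturation of the subunit, passed at neither time, and its 4 pH 6.4 arrays, at 312 to 363, all lay below its 4 pH 7.4 arrays, at 398.5 to 466.

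Of the 12 genes of large subunit assembly, 7 were higher at 12 h (58.3%, against 16.9% of all genes) and 1 was lower (8.33%, against 17.6%). The share higher was near that of the snoRNP genes (57.1%). Rrp1b, a nucleolar protein bound to large subunit precursors, had the largest rise of the 42 genes. It read 280.2 in TDAG8 cells and 271 in control cells at 12 h of pH 6.4, against 86.5 in both lines at pH 7.4. The difference was 1.67 ± 0.10 (adjusted p = 0.00077), a 3.18-fold change. The probe set used had a mean signal of 152. Of its other probe sets, one with a mean signal of 92.4 differed by 1.13 at 12 h. Another, nearly as bright as the one used at 139.6, differed by -0.24 at 12 h and by -0.73 at 4 h. Nop16 read 279.8 and 241.8 at 4 h and 335.4 and 276.4 at 12 h of pH 6.4 in the TDAG8 and control lines, against 182.3, 195.7, 177 and 179.1 at pH 7.4. The pH groups did not overlap, with differences of 0.54 ± 0.12 at 4 h (adjusted p = 0.032) and 0.76 ± 0.12 at 12 h (adjusted p = 0.0061). A mean over all probe sets, including a Nop16 probe set with a mean signal of 7.46, turned the 12 h difference of Nop16 to -0.40 and that of Polr1a to -0.05.

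Gnl3, the nucleolar GTPase also called nucleostemin, read 486 in TDAG8 cells and 471 in control cells at 4 h of pH 6.4, against 589 and 720.1 at pH 7.4. At 12 h it read 730.5 and 926 at pH 6.4, against 492 and 582 at pH 7.4. The difference was -0.44 ± 0.11 at 4 h (adjusted p = 0.047) and 0.59 ± 0.11 at 12 h (adjusted p = 0.010). The pH groups, of only 2 arrays each, did not overlap at either time. Nop2, an RNA methyltransferase, read 118 and 144 at 4 h of pH 6.4, against 232 and 208 at pH 7.4, a difference of -0.61 ± 0.13 (adjusted p = 0.028) that held in 3 of 10 fits with 1 array left out. Its difference at 12 h was 0.35 ± 0.13 and did not pass (adjusted p = 0.092). The related GTPase Gnl2, Noc3l, Rrs1 and Pes1 rose at 12 h by 0.57, 0.57, 0.55 and 0.42, and the call of Pes1 held in 2 of those fits. As means of their probe sets, Gnl2, Noc3l and Pes1 differed by 0.17, 0.30 and 0.10 and did not pass, while Rrs1 still passed. Another Noc3l probe set, with a mean signal of 110, differed by 0.03. Pes1, Bop1 and Wdr12 form one complex, and the difference between them was not tested. Bop1 fell by 0.33 ± 0.09 at 12 h (adjusted p = 0.034), and Wdr12 differed by 0.18 ± 0.12 (adjusted p = 0.29). The Bop1 call held in 0 of 10 fits with 1 array left out and was lost with median centring and without a filter, and as a mean of its probe sets the difference was 0.026.

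The 3 abundant nucleolar proteins passed at neither time. Ncl, nucleolin, read 2938 in TDAG8 cells and 4223 in control cells at 12 h of pH 6.4, against 2903 and 3584 at pH 7.4, a difference of 0.07 ± 0.09 (adjusted p = 0.61). Npm1, nucleophosmin, read 3370 and 5943 at pH 6.4, against 4446 and 4575 at pH 7.4, so the lines had opposite signs. Ddx21, an RNA helicase, differed by 0.27 ± 0.12 at 12 h (adjusted p = 0.15). Another Ncl probe set, with a mean signal of 241, differed by -1.67 at 12 h.

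Taking the acid response at 12 h minus that at 4 h, 10 genes were higher, against 6.63% of all genes tested, and 1 was lower, against 5.52%. The largest gains were those of Rrp1b (1.39 ± 0.14, adjusted p = 0.015), Wdr43 (1.27 ± 0.14, adjusted p = 0.015) and Polr1b (1.11 ± 0.15, adjusted p = 0.018), and Ubtf lost 1.12 on the log2 scale (adjusted p = 0.017). Myc gained 0.54 ± 0.15 and did not pass (adjusted p = 0.071). Without a filter on low genes, where the differences were the same, 0 of the 42 and 0 of all 18193 genes were called. With 1 array left out, fewer gains were called among the 42 and among all genes in every fit, and no gain was left among the 42 in some. The median of the 42 genes lay between 0.26 and 0.30 in these fits.

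The same contrast can be read as change with time within each pH. From 4 h to 12 h at pH 6.4, 11 of the 42 genes were higher at 12 h (14.9% of all genes) and 3 were lower (12.2% of all genes). Wdr43, Polr1b and Nop2 had the largest gains, at 1.07 ± 0.10, 0.999 ± 0.10 and 0.93 ± 0.13. The genes that fell were Ubtf (-1.16 ± 0.10), Bop1 (-0.65 ± 0.09) and Nat10, an RNA acetyltransferase (-0.36 ± 0.09). The fall of Nat10 held in 0 of 10 fits with 1 array left out and in 4 of the 8 other settings. Fewer of the 42 and fewer of all genes were called higher when either pH 6.4 array of 4 h was left out. The median of the 42 genes was 0.13 without that of the TDAG8 line and 0.18 without that of the control line. Myc gained 0.40 ± 0.11 (adjusted p = 0.039), a call lost when any 1 array was left out.

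At pH 7.4 no gene passed. From 4 h to 12 h, 41 of 42 had a negative difference, against 50.2% of all genes tested, with a median of -0.14, and limma called 0 of 42 and 0 of all genes (0%), with 6 of the 42 and 1278 of all genes at an unadjusted p under 0.05. Rrp1b differed by -0.54 ± 0.10 (adjusted p = 0.28) and Polr1a by -0.37 ± 0.08 (adjusted p = 0.31), both negative in both lines. Between samples before treatment and 4 h of pH 7.4, 37 of 42 had a negative difference, against 49.99% of all genes, with a median of -0.14. Here too limma called 0 of 42 and 0 of all genes (0%), with 0 of the 42 and 566 of all genes at an unadjusted p under 0.05. Noc2l differed by -0.32 ± 0.16 and Wdr75 by -0.31 ± 0.20. Both comparisons share the pH 7.4 arrays of 4 h, and the 12 h pH differences share the pH 7.4 arrays of 12 h.

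Over all 8 treated arrays, 3 genes were higher at pH 6.4 with line and time as a block (4.47% of all genes) and none was lower (5.56% of all genes, with 2 of the 42 at an unadjusted p under 0.05). They were Myc, Nop16 (0.65 ± 0.13, adjusted p = 0.039) and Polr1a (0.51 ± 0.11, adjusted p = 0.046). The calls of Nop16 and Polr1a held in 0 of 4 fits with 1 pair left out, and in 4 and 3 of the 8 other settings. In 11 of the 42 genes all 4 pH 6.4 arrays lay above all 4 pH 7.4 arrays, against 12.6% of all genes, and in 1, Ltv1, all lay below, against 12.3%. The 11 were Myc, Polr1a, Gar1, Nhp2, Nolc1, Rrp12, Bysl, Pes1, Nop16, Rrp1b and Noc2l.

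Between the lines, limma called 0 of 42 genes, against 0.674% of all genes called higher and 0.526% called lower in the TDAG8 line. At an unadjusted p under 0.05 there were 17 of the 42, all lower in the TDAG8 line, and 2525 of all genes. The difference was negative for 32 of 42, against 50.5% of all genes, with a median of -0.13. Fbl read 812 to 1196 in TDAG8 cells and 1019.5 to 1722 in control cells, a difference of -0.43 ± 0.11 (adjusted p = 0.11). Wdr12 differed by -0.39 ± 0.08 (adjusted p = 0.074), and Myc by -0.26 ± 0.07 (adjusted p = 0.12). All 3 were lower in 5 of 5 pairs, although the ranges of the lines overlap. With another variance model (eBayes with trend and robust) 12 of the 42 were called lower, Myc among them, beside 427 of all 12161 genes. With a filter at the 60th percentile 6 were, beside 282 of the 9358 genes tested there.

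The acid response in the TDAG8 line minus that in the control line asked whether the receptor line answered acid differently. limma called 0 of 42 and 0 of all genes tested (0%), with 0 of the 42 and 339 of all genes at an unadjusted p under 0.05. This fit had 2 residual degrees of freedom and no term for a change of the acid response with time. Any such change entered its error, so the lack of calls cannot show that the lines answered acid alike. For Myc the difference was 0.02 ± 0.37, with an acid response of 0.97 in TDAG8 cells and 0.76 in control cells at 4 h, and of 1.32 and 1.49 at 12 h. Wdr75 (0.52 ± 0.37) and Npm1 (-0.31 ± 0.28) had the largest differences with the same sign at both times. The absolute gap between the lines had a median of 0.13 at 4 h and 0.17 at 12 h over the 42 genes, beside 0.20 and 0.27 over all genes tested.

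**Figure D4:**
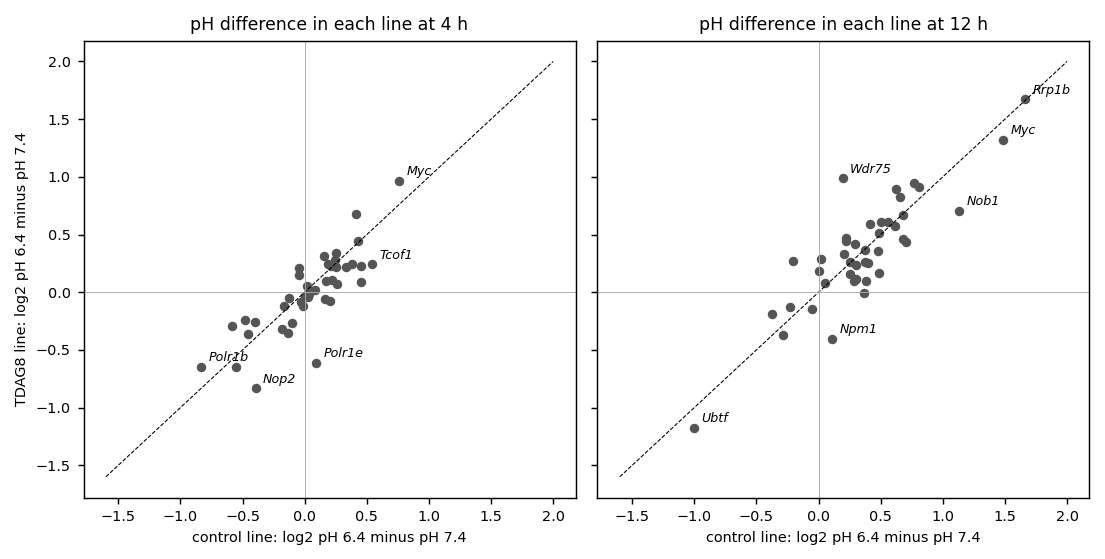
The log2 difference of pH 6.4 minus pH 7.4 in the TDAG8 line (vertical axis) against that in the control line (horizontal axis) for the 42 genes at 4 h, left, and 12 h, right. The dashed line marks equal differences, and each point rests on 4 arrays with no replicates. Polr1e at 4 h and Wdr75 at 12 h lie farthest from it, by 0.70 and 0.79.

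The likeness of each gene to Myc was described by Pearson's r over the 10 arrays, which share their conditions. The median r of the other 41 genes was 0.42 (median Spearman's rho 0.38), or 0.18 with the mean of all probe sets, beside -0.0015 over all genes tested, whose middle 50% lay between -0.51 and 0.50. An r over 0.5 was seen for 15 of 41, or 36.6%, against 25.1% of all genes, and an r under -0.5 for 3, or 7.32%, against 25.5%. The most alike were Nop16 (0.90), Nhp2 (0.89) and Bysl (0.88), and the least alike were Ltv1 (-0.85), Ubtf (-0.75) and Nop56 (-0.55). Without the pair of pH 6.4 arrays of 12 h, the arrays farthest from the median of Myc, Nop16 had 0.91, Ubtf -0.07 and Polr1b -0.84, and the median was 0.37. In single comparisons, 34 of 41 genes in TDAG8 cells and 35 of 41 in control cells had the same sign as Myc at 12 h, and 21 and 25 at 4 h, where 49.9% to 51.3% of all genes did.

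**Figure D5:**
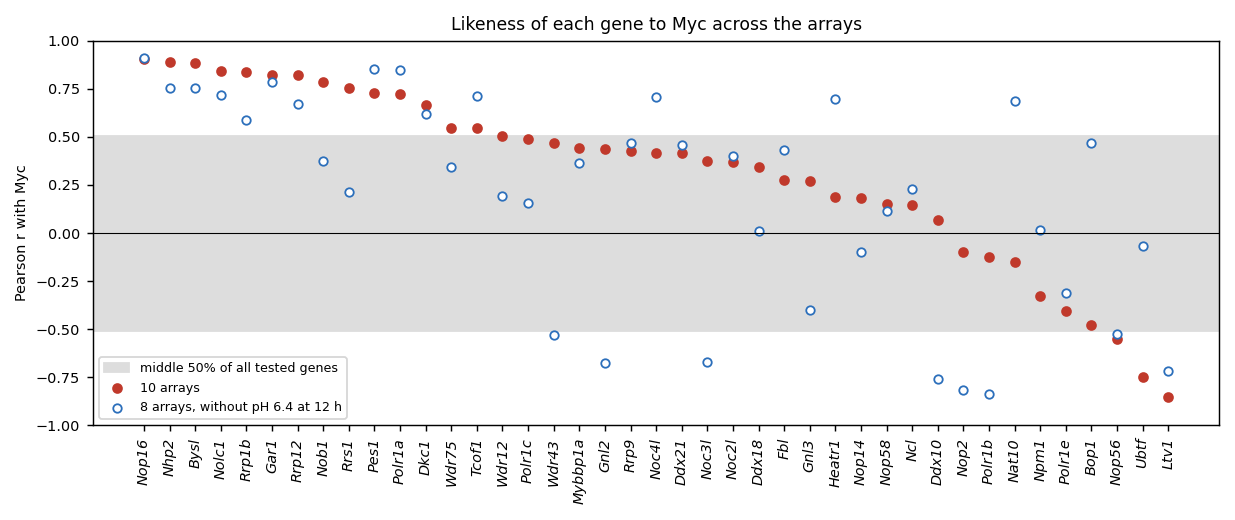
Pearson's r with Myc (vertical axis) for each of the 41 other genes, ordered by its value over 10 arrays in red, with the value over 8 arrays, without pH 6.4 at 12 h, as open blue circles. The grey band holds the middle 50% of all tested genes, from -0.51 to 0.50. The highest values are those of Nop16, Nhp2 and Bysl, and several genes that were low at 4 h of acid, such as Polr1b, have blue circles near the bottom.

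Promoter windows of 250 bases before to 50 bases after the start site, taken from RefSeq on GRCm38.p6, were found for 34 of the 42 genes. They are shown because the E-box CACGTG, a palindrome that reads the same on both strands, is the site Myc and Max are known to bind. It stood in the windows of 5 of the 34 genes, or 14.7%, against 8.09% of 27025 genes in the table. The variant CACGCG, searched on both strands (CGCGTG on the other), stood in 12, or 35.3%, against 10.5%. Base composition was not matched, and a match is only a description of these letters. In the 5 windows with CACGTG the motif is in capitals, and its first base lies 41, 18, 29 and 3 bases into the transcript of Mybbp1a, Wdr43, Ltv1 and Pes1, counting the start as 1, and 60 bases before the start of Nop2.
Mybbp1a (chr11:72441355-72441376, plus strand): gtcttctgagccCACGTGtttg
Wdr43 (chr17:71616220-71616249, plus strand): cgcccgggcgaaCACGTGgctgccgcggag
Ltv1 (chr10:13193092-13193121, minus strand): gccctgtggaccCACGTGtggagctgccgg
Pes1 (chr11:3963965-3963994, plus strand): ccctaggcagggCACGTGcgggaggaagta
Nop2 (chr6:125131776-125131875, plus strand): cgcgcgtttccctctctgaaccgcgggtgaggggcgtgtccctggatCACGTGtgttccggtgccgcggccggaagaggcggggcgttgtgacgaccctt
These 5 genes differed in their acid response. Wdr43 and Pes1 rose at 12 h, Wdr43 and Nop2 fell at 4 h, and Mybbp1a and Ltv1 passed at neither time. Of the 15 genes with a window that rose at 12 h, 2 held CACGTG and 6 held CACGCG.

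Other genes of the pathway were read in lists apart from the 42, which were also chosen with earlier results of these data known. Of all genes tested 16.9% rose and 17.6% fell at 12 h and 6.19% rose and 11.5% fell at 4 h. Of 80 further assembly factors, 44 rose and 3 fell at 12 h, or 55% and 3.75%, with a median of 0.42, and 6 rose and 6 fell at 4 h, or 7.5% each. Among them were Nol10 (1.27), Gtpbp4 (1.22) and Imp4 (-1.20) at 12 h, and Dhx33 (-0.93), Nol9 (-0.88) and Ddx52 (-0.88) at 4 h. Of 10 further RNA polymerase I factors, 4 rose at 12 h (40%), led by Taf1d (1.85) and Taf1a (0.82), parts of the selectivity factor, and Rrn3 (0.65), its partner on the polymerase. At 4 h, 3 rose (30%) and 2 fell (20%), led by Taf1d (1.60), Taf1c (-1.03) and Cd3eap (-0.79), a polymerase I subunit.

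Genes of RNA polymerase III, which copies transfer RNA and the smallest ribosomal RNA, were mixed at 12 h, with 5 of 18 higher (27.8%) and 3 lower (16.7%), led by Polr3e (-0.82), Polr3c (-0.77) and Brf1 (-0.69). At 4 h, 3 fell (16.7%) and none rose: Polr3f (-1.61), Polr3e (-1.14) and Brf2 (-0.83). Of 43 cytosolic ribosomal protein genes, whose products are the cargo of this assembly line, 1 rose at 12 h (2.33%), Rps25 (0.67), and 2 at 4 h (4.65%), Rpl12 (0.86) and Rps25 (0.47). Their median at 12 h was 0.02. Of 15 genes of the Myc network, 4 rose (26.7%) and 1 fell (6.67%) at 12 h. Mxd4, which competes with Myc for Max, fell by 0.85 at 4 h and 1.90 at 12 h, and the kinase gene Pim1 rose by 1.58 and 1.02. Of 29 other known Myc targets, 11 rose (37.9%) and 6 fell (20.7%) at 12 h, led by Cdc25a, a cell cycle phosphatase (1.86), Shmt2 (-0.94) and Pa2g4 (0.82), and 2 rose and 2 fell at 4 h, or 6.90% each.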

How the data were processed

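Total RNA of the 10 samples was labelled with biotin and hybridised to Affymetrix Mouse430 2.0 arrays, per the labels. The deposited table holds a linear signal intensity per probe set, scaled by the authors to a common mean; which software made it is not stated in the labels. Of 45101 probe sets, 34945 had 1 gene symbol in the platform annotation, 932 had several, 9160 had none and 64 were controls. Each gene was read from its single-symbol probe set with the highest mean. Values were quantile normalised, since array medians spanned 0.20 on the log2 scale, and tested as log2(signal + 2.4), 2.4 being the 20th percentile. Genes whose mean reached the 40th percentile (3.17 on the log2 scale) were tested.

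limma 3.58.1 in R 4.3.3 (lmFit, eBayes) fitted condition and line to 10 arrays (4 residual degrees of freedom). The pH difference over both times used the 8 treated arrays blocked by line and time (3 residual degrees), and the difference of acid responses between the lines had 2. The number of arrays limits the precision. Full statistics were given for Myc and for the 3 largest passing rises and falls of each comparison, or the 2 largest one-signed differences where none passed, and up to 3 genes were named from each other list. Genes outside that rule were named for their role. The 42 genes and the other lists were chosen with earlier results of these data known. The alternatives were 2 other normalisations, 2 other filters, the mean of all probe sets, another variance model, 2 other pseudocounts and each array or pair left out.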

Additional observations from a re-analysis of the deposited data

Results flagged for a closer look

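For 11 genes the acid response (log2 difference of pH 6.4 minus pH 7.4) differed between 12 h and 4 h, by the limma test of that difference itself at an adjusted p under 0.05, with the same sign in both lines. In large subunit assembly the response was larger at 12 h for Rrp1b (1.3927), Gnl3 (1.0287), Nop2 (0.9605), Noc3l (0.8984), Gnl2 (0.822) and Rrs1 (0.5442). In small subunit assembly it was larger for Wdr43 (1.2672) and Nob1 (0.8816), among snoRNP genes for Nolc1 (0.5677), and in the RNA polymerase I machinery for Polr1b (1.1074). For Ubtf it was -1.1165. All of these calls were lost without a filter on low genes, where 0 of all 18193 genes were called. With each array left out in turn, those of Rrp1b, Wdr43 and Ubtf held in 5 of 10 fits. Those of Polr1b and Gnl3 held in 4, of Gnl2 in 3, of Noc3l in 2, and of Nob1, Nop2, Nolc1 and Rrs1 in 0.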

How the results depend on the processing

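Arrays were matched by line, condition and time, as described. There was 1 array per line and condition, so there were no replicates to pair. With arrays centred on the median, the median of all genes was 0.10 at 12 h (0.02 without centring), 0.20 for 12 h minus 4 h (0.04) and 0.14 with time at pH 6.4 (0.03). Centring gave 1 gene higher at 4 h, 1 lower at 12 h and 1 higher over both times. Of all 12159 genes these were 334, 1568 and 297. The medians of the 42 genes were 0.47 at 12 h, 0.49 for 12 h minus 4 h, -0.17 between lines and 0.027 for the acid response by line. With time they were -0.23 at pH 7.4 and 0.25 at pH 6.4. The rise of Myc with time at pH 6.4 missed the threshold with centring (0.33), with values as deposited (0.23) and without a filter (0.40). Values as deposited gave 1 gene higher over both times (365 of all 12159 genes), with medians of 0.087 at 4 h and 0.31 for 12 h minus 4 h.

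Without a filter, 1 was higher and 2 were lower at 4 h (292 and 781 of all 18193 genes), and 1 was lower at 12 h (1525 of all genes). For 12 h minus 4 h, 0 were higher or lower (0 of all genes). Over both times 0 were higher (103 of all genes), and Myc missed the threshold at 1.13. With the 60th percentile, 5 were higher at 4 h (1092 of all 9358 genes) and 5 over both times (933 of all genes). For 12 h minus 4 h, 2 were lower (1037 of all genes) and Myc passed at 0.54. In the TDAG8 line 6 were lower (282 of all genes). Trend and robust gave 5 higher at 4 h (1179 of all 12161 genes) and 6 over both times (969 of all genes). For 12 h minus 4 h, 2 were lower (1104 of all genes) and Myc passed at 0.54. In the TDAG8 line 12 were lower (427 of all genes) and Myc passed at -0.26. A pseudocount at the 40th percentile gave 1 lower in the TDAG8 line (105 of all 12154 genes).

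The mean of all probe sets turned Polr1a (-0.047), Bop1 (0.026) and Nop16 (-0.40) at 12 h and Nop16 over both times (-0.00619). It gave 1 higher at 4 h, 1 lower at 12 h, 6 higher for 12 h minus 4 h and 1 over both times. Of all 11435 genes these were 655, 1650, 432 and 566. Its medians were 0.26 at 12 h, 0.20 for 12 h minus 4 h, -0.10 between lines, 0.0088 for the acid response by line, -0.16 with time at pH 7.4 and 0.016 at pH 6.4, and the median r with Myc was 0.18. Dim probe sets enter that mean, and the cause was not tested otherwise.

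With 1 array left out in turn, the 42 genes had 0 to 3 higher and 0 to 3 lower at 4 h, with a median of 0.018 to 0.067 and Myc at 0.77 to 0.96. At 12 h there were 10 to 17 higher and 1 lower, with a median of 0.33 to 0.37. For 12 h minus 4 h there were 0 to 6 higher and 0 to 1 lower, with a median of 0.26 to 0.30. Between lines the median was -0.13 to -0.11, at pH 7.4 it was -0.14 to -0.11 from before treatment to 4 h and -0.18 to -0.14 from 4 h to 12 h. At pH 6.4 with time there were 6 to 9 higher, with a median of 0.11 to 0.19 and Myc at 0.31 to 0.49. With 1 pair left out, there were 0 to 1 higher over both times, with Myc at 1.02 to 1.26, and the median of the acid response by line was -0.19 to 0.18. Where calls were made, fewer of all genes were called too in most of these fits. Precision is limited by the number of arrays.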
